A study of Bos taurus with 8 samples.

Results

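The 8 genes described here, of 21880 in the matrices, were chosen by their measured values, as their transcript levels in fibro-adipogenic progenitors (FAPs) of fresh bovine muscle differed between calves and adults. They are SGPL1, PACSIN2 and TACC1, which were lower in calves, and NRK, ADGRD1, CD248, LRRC17 and ALAD, which were higher. Each name matched 1 gene identifier. The values below follow the same genes into culture and into the other cell types of the muscle.

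Single-cell transcriptomes were measured in semitendinosus muscle of 10 Belgian Blue cattle, a double-muscled beef breed, to characterise the cells that start a cultured meat process. Cells were released with collagenase and sequenced directly (muscle), after 72 h of adherent culture in serum-free growth medium (SFGM; passage 0) and at passages 2, 5 and 8. The 5 calves were donors 2, 4, 5 and 7 (female) and donor 10 (male), and the 5 adults were donors 1, 3 and 9 (female) and donors 6 and 8 (male). Donor 3 was sequenced in muscle only. For passages 2 to 8, cells of donors 4, 7 and 8 had been sorted as FAPs, those of donors 5, 6 and 10 as satellite cells (SCs), and those of donors 1, 2 and 9 were carried on unsorted. All donors of a timepoint shared 1 pooled library and were told apart by their genotypes, so timepoint and library cannot be told apart.

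FAPs are resident mesenchymal cells of muscle interstitium. They deposit extracellular matrix, support satellite cells during repair and can become adipocytes or fibroblasts. Muscle of a growing animal and of an adult differ in how actively this matrix is built, and placing FAPs on plastic brings them into the cell cycle.

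For each donor and each deposited cell type, the raw transcript counts (unique molecular identifiers, UMIs) of all cells were summed into 1 profile, kept where it held at least 10 cells. FAPs numbered 1231 cells in muscle, 5756 at passage 0, 4987 at passage 2, 6819 at passage 5 and 2616 at passage 8. Summed UMIs per FAP profile ran from 270458 to 2268755 in muscle and from 10321593 to 23061306 at passage 0, so low genes rested on few UMIs per donor in muscle. Levels are given as CPM, the counts scaled to a common library total. CPM values carry trimmed mean (TMM) scaling within the comparison for genes that passed the filter on low counts, and library-size scaling otherwise. A gene was called changed at an adjusted p under 0.05 with an absolute log2 fold change above 1, the study's own limits. The study also required a minimum share of expressing cells, which was not applied here. In summed profiles, fewer cells that express a gene and less RNA of it per cell cannot be told apart.

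In muscle FAPs, the contrast that chose the genes, the groups of 5 calves and 5 adults did not overlap for any of the 8. Since this contrast chose the genes, the values are given as a description, with no p. SGPL1, the lyase that breaks down sphingosine-1-phosphate, stood at 3.95, 11.9, 10.8, 4.54 and 6.98 CPM in calf donors 2, 4, 5, 7 and 10. In adult donors 1, 3, 6, 8 and 9 it stood at 22.5, 50.2, 56.9, 44.7 and 52.9 CPM, and adult donor 1 was the lowest of its group. These levels rested on 41 UMIs in calves and 116 in adults, and the fitted log2 fold change of calves over adults was -2.49.

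PACSIN2, a membrane-bending protein of caveolae and endocytosis, was at 49.4, 109, 96.9, 65.1 and 54.1 CPM in the same calves. The adults held 216, 197, 246, 213 and 171 CPM, and the log2 fold change was -1.48. The lowest adult was well above the highest calf. TACC1, a coiled-coil protein that associates with microtubules and the centrosome, ranged from 75.0 to 111 CPM in calves and from 170 to 237 CPM in adults, with a log2 fold change of -1.11.

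NRK, a kinase of the germinal centre kinase family known from embryonic muscle and placenta, was at 103, 123, 115, 109 and 129 CPM in calf donors 2, 4, 5, 7 and 10. The adults had 16.1, 53.8, 29.7, 46.2 and 35.3 CPM, with donor 1 again the lowest. Calves were tightly grouped and adults more spread, and the log2 fold change was 1.68. ADGRD1, an adhesion G protein-coupled receptor, ranged from 84.6 to 132 CPM in calves and from 25.1 to 58.0 CPM in adults. CD248 (endosialin), a surface glycoprotein of stromal cells and pericytes, ranged from 312 to 393 CPM in calves and from 133 to 231 CPM in adults. It was the only member below the fold limit, at a log2 fold change of 0.96.

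LRRC17, a secreted leucine-rich repeat protein, was the most variable member in muscle. Calves held 65.2, 31.7, 77.7, 66.6 and 169 CPM, with male donor 10 highest, and adults 19.3, 3.59, 3.56, 13.9 and 14.7 CPM on 24 UMIs in all. ALAD, the second enzyme of haem synthesis, ranged from 42.8 to 100.8 CPM in calves and from 14.4 to 22.5 CPM in adults, and its log2 fold change was 1.96. In this contrast 7 of the 8 passed the call rule against 1.32% of 6158 genes tested, and all 8 were without overlap against 5.34%. Since the contrast chose the genes, nothing is read from these shares.

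**Figure D1:**
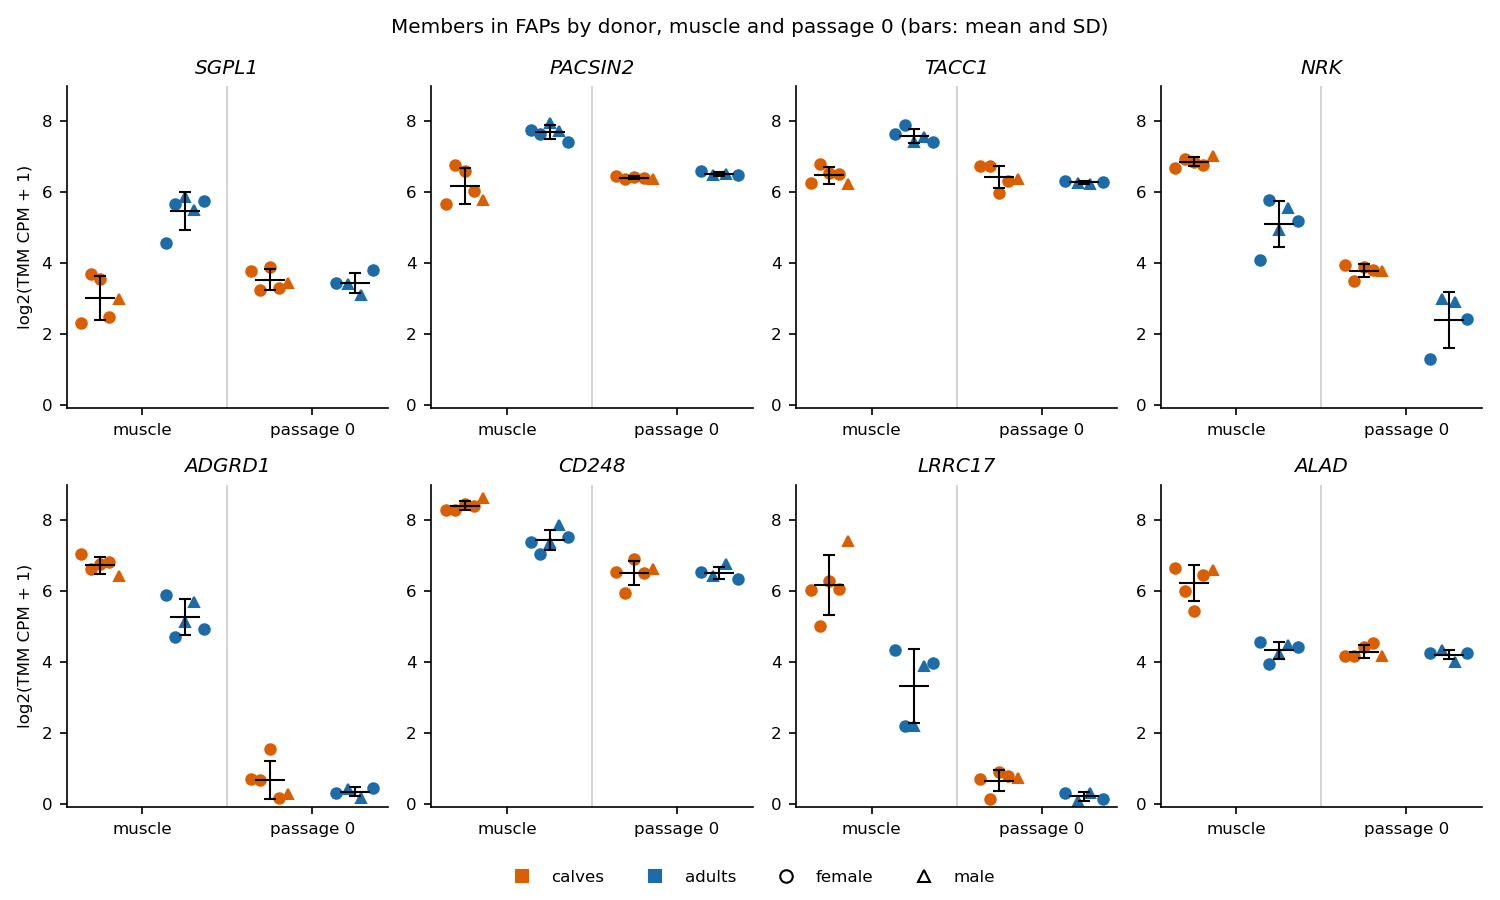
Level of each gene in FAPs of each donor as log2(TMM CPM + 1), or library-size CPM for ADGRD1 at passage 0, in muscle and at passage 0, with calves in orange, adults in blue, females as circles, males as triangles, and bars for the mean and SD of each group. Calves and adults are separate in muscle for all 8 genes, and at passage 0 the NRK groups are apart while those of SGPL1, TACC1, CD248 and ALAD lie on each other.

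Several other measures are given by age for these muscle profiles, and their part in the differences was not tested. Calf FAP profiles were deeper by median, 706261 against 330403 UMIs, with overlapping ranges of 530348 to 2268755 and 270458 to 860358. Summed levels of 30 cell cycle genes were 212 to 280 CPM in calves and 288 to 484 CPM in adults. Only 6 of the 30 passed the filter, with a median log2 fold change of 0.02 and 0 at an unadjusted p under 0.05 in edgeR. Summed levels of 10 muscle fibre genes were 1478 to 1810 CPM in calves and 1060 to 1548 CPM in adults, and those of 6 FAP markers overlapped between the ages, at 24158 to 28846 and 25271 to 30927 CPM. Summed levels of 6 lymphocyte markers were 0 to 0.82 CPM in calves and 0 to 24.4 CPM in adults, with CD79A and CD79B at 0 in every profile. Those of 6 mural cell markers were 24.96 to 79.2 CPM in calves and 14.8 to 39.3 CPM in adults, and none of the 6 was at 0 throughout.

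After 72 h of culture the fitted gap was smaller than in muscle for most members. Genes chosen for a large gap in muscle would show a smaller one elsewhere from that choice alone, and the difference between the timepoints was not tested. Calf and adult FAPs at passage 0 were compared over 5 calves and 4 adults with edgeR's quasi-likelihood test, which called 0 of 11466 genes (0%), while 575 genes (5.01%) had an unadjusted p under 0.05. DESeq2 on the same profiles called 8 genes. Of the 7 members that passed the filter, 0 were called by edgeR and 1 by DESeq2 (NRK). In edgeR, 2 had an unadjusted p under 0.05 (NRK and LRRC17). LRRC17 passed the filter only through calves, where it was high, so nothing is read from its p. These are the same animals as in muscle, so a difference that persists is not independent evidence from other animals.

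NRK stayed apart between the ages at passage 0. It was at 14.6, 10.3, 13.9, 12.9 and 12.8 CPM in calf donors 2, 4, 5, 7 and 10, and at 1.43, 6.94, 6.52 and 4.41 CPM in adult donors 1, 6, 8 and 9. Every calf lay above every adult, as for 2.02% of genes tested, whose groups did not overlap in either direction. Group means were 12.9 ± 1.62 CPM (SD, n = 5) and 4.83 ± 2.52 CPM (SD, n = 4), on 1026 and 291 UMIs.

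The log2 fold change of NRK was 1.39 with a standard error of 0.33 and a 95% interval of 0.62 to 2.16, from the donors' residual degrees of freedom. Its p was 0.00171 before and 0.826 after adjustment over all genes in edgeR, against an adjusted p of 0.0179 in DESeq2, so the call depended on the tool. The exact permutation test over donors gave p = 0.00794 (two-sided), the smallest that 5 against 4 allows, as 1 of 29 such tests of the members in cultured FAPs. At the same passage the exact permutation test gave p = 0.0317 for LRRC17 and p = 0.0159 for PACSIN2, and at least 0.31 for the other members tested. Nothing is read from the p of LRRC17, which passed the filter only through calves. For NRK, the adult females, donors 1 and 9, were below the adult males, donors 6 and 8. With female animals alone the log2 fold change of NRK was 2.17, and with sex in the model it was 1.66 with an adjusted p of 0.401.

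LRRC17 was close to the detection limit in cultured FAPs, with 50 UMIs over 5 calves and 9 over 4 adults. Calves 2, 5, 7 and 10 held 8, 14, 12 and 15 UMIs, calf 4 held 1, and adults 1, 6, 8 and 9 held 3, 1, 4 and 1. The groups overlapped through calf 4. The log2 fold change was 1.91 with a standard error of 0.56 (edgeR, adjusted p = 0.912). LRRC17 passed the filter only through calves 2, 5, 7 and 10, where it was high, so nothing is read from this difference.

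For 5 members the difference at passage 0 was small and its interval narrow. PACSIN2 was at 87.7, 82.2, 85.6, 84.4 and 82.3 CPM in the calves and at 95.3, 88.4, 89.7 and 89.5 CPM in the adults. The groups did not overlap, but lay within a few CPM of each other, and the log2 fold change was -0.10 with a 95% interval of -0.22 to 0.02. TACC1 had a fitted log2 fold change of 0.18 (-0.15 to 0.51), SGPL1 of 0.11 (-0.32 to 0.55), ALAD of 0.09 (-0.17 to 0.36) and CD248 of 0.02 (-0.36 to 0.41), and their groups overlapped.

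ADGRD1 fell under the filter at passage 0, with 54 UMIs in calves and 15 in adults, 33 of the 54 from calf donor 5. Fitted without the filter, its log2 fold change was 1.38 with a standard error of 0.78 (edgeR, adjusted p = 0.883), a difference that was not detectable at this depth.

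The members also differed in where the groups met, on CPM scaled within each timepoint. SGPL1 at passage 0 averaged 10.8 CPM in calves and 10.0 CPM in adults, near the 7.64 CPM of calves in muscle and below the 45.5 CPM of adults. TACC1 and PACSIN2 likewise lay nearer the calf mean in muscle, 88.9 and 74.9 CPM, than the adult mean, 193 and 208 CPM. ALAD averaged 18.8 CPM in calves and 17.6 CPM in adults at passage 0, near the 19.4 CPM of adults in muscle and below the 78.0 CPM of calves. For these 4 genes, the level at passage 0 was thus near that of the muscle group in which the gene was lower. CD248, whose groups also met, averaged 92.6 CPM in calves and 91.3 CPM in adults at passage 0. Both lay below its muscle means of 343 CPM in calves and 175 CPM in adults. The muscle means are those of the contrast that chose the genes.

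**Figure D2:**
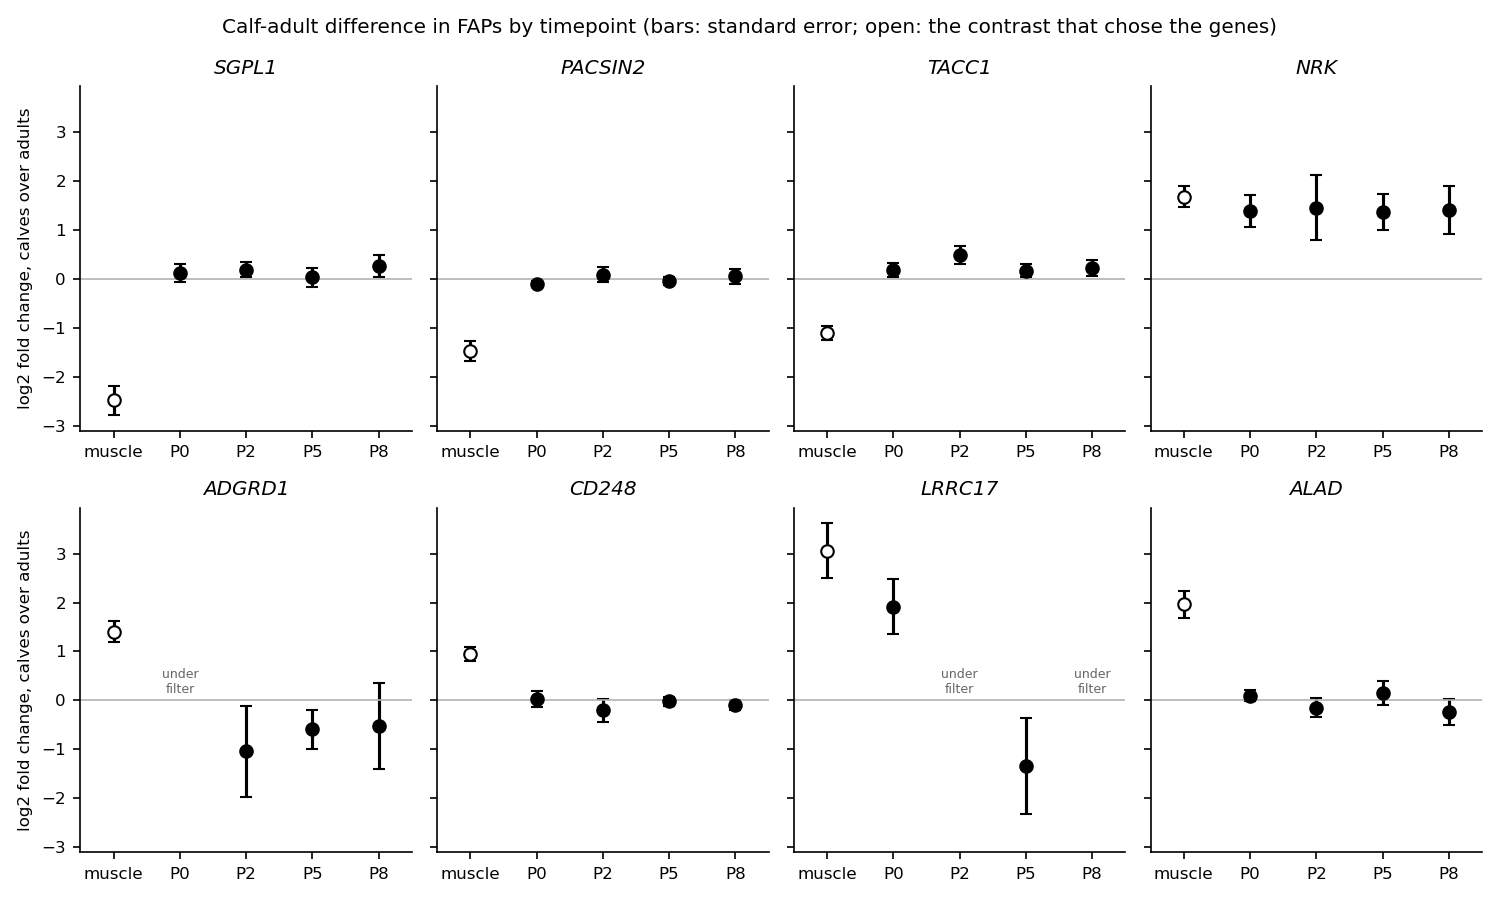
Fitted log2 fold change of calves over adults in FAPs at each timepoint, 1 panel per gene, with bars for the standard error and an open point for the muscle contrast that chose the genes. NRK stays between 1.36 and 1.68 at all 5 timepoints, while SGPL1, PACSIN2, TACC1, CD248 and ALAD lie between -0.24 and 0.48 from passage 0 on.

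With the ages pooled, most members were fitted lower in cultured FAPs. FAPs at passage 0 were compared with FAPs in muscle over 9 and 10 profiles, with edgeR's quasi-likelihood test. Of 9208 genes tested, 43.4% were called, 22.5% lower and 20.9% higher, and of the 7 members tested 4 were called, all lower. ADGRD1 passed the filter only through muscle, where it was high and was chosen, so nothing is read from its call. The lower members were ADGRD1 (log2 fold change -7.03, standard error 0.42), NRK (-2.95, 0.39), CD248 (-1.36, 0.18) and ALAD (-1.34, 0.28). This comparison pooled the ages, although the genes were chosen for an age gap in muscle. ADGRD1, NRK and CD248 had lower means at passage 0 in both ages. ALAD went from 78.0 to 18.8 CPM in calves and only from 19.4 to 17.6 CPM in adults, scaled within each timepoint.

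ADGRD1 went from 603 UMIs in 7723469 FAP UMIs in muscle to 69 in 136219244 at passage 0. Every cultured profile lay below every muscle profile, where 44% of genes did not overlap in either direction. As ADGRD1 passed the filter only through muscle, nothing is read from this either. LRRC17, under the filter, went from 469 UMIs to 59 in the same totals. SGPL1 had a log2 fold change of -0.997 (edgeR, adjusted p = 0.0215) and TACC1 one of -0.54 (adjusted p = 0.0159), both without passing the fold limit. PACSIN2 had a log2 fold change of -0.48 (adjusted p = 0.0848). By age, SGPL1 went from 7.64 to 10.8 CPM in calves and from 45.5 to 10.0 CPM in adults. TACC1 went from 88.9 to 87.1 CPM in calves and from 193 to 76.8 CPM in adults. PACSIN2 went from 74.9 to 84.4 CPM in calves and from 208 to 90.7 CPM in adults. With the donor as a replicate block the adjusted p of SGPL1 was 0.197 and that of TACC1 0.12, while LRRC17 passed the filter and was called lower, at a log2 fold change of -6.67. LRRC17 passed only through muscle, where it was high, so nothing is read from its call. After thinning to the smallest profile only 3 members passed the filter and 1, CD248, was called. Library-size scaling in place of TMM moved the median of all genes by -0.10 on the log2 scale, and SGPL1 was then called, as it was by DESeq2. Between the libraries, 30 cell cycle genes summed to 212 to 484 CPM in muscle and 3242 to 3983 CPM at passage 0, and 10 dissociation response genes to 5166 to 12846 and 632 to 828 CPM, and their part was not tested.

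CD248 did not stay low. Its mean level over donors in FAPs, in library-size CPM, was 246 ± 81.2 in muscle (n = 10), 91.7 ± 14.8 at passage 0 (n = 9), 333 ± 77.3 at passage 2 (n = 8), 487 ± 36.0 at passage 5 (n = 9) and 367 ± 32.5 at passage 8 (n = 9). Passage 5 lay above muscle by more than either spread, without a test. In the same FAP profiles the summed level of 6 mural cell markers was 37.5 to 82.4 CPM at passage 0, 269 to 1194 CPM at passage 2, 210 to 1055 CPM at passage 5 and 542 to 1683 CPM at passage 8, with RGS5 at 0 in every profile at each of these passages, and the part of such cells in the CD248 levels was not tested. ADGRD1 stayed between 0.51 and 2.36 CPM and NRK between 4.00 and 9.29 CPM in culture. PACSIN2 went from 87.2 to 95.6 CPM and TACC1 from 82.7 to 78.4 CPM between passages 0 and 8. For PACSIN2 the SD was 4.81 CPM at passage 0 and 20.4 CPM at passage 8, and for TACC1 it was 15.9 and 18.6 CPM.

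At passages 2, 5 and 8, the calf-adult comparison carried the kind of culture as a term, because sorted and unsorted cultures were unevenly spread over the ages. edgeR called 0 genes at each passage, of 11862 (0%), 11696 (0%) and 9931 (0%), with 3.04%, 2.29% and 2% at an unadjusted p under 0.05. DESeq2 called 13 genes over the 3 passages, none of them a member. FAP profiles of calf donors 5 and 10 held 19 and 12 cells at passage 2, and adult donor 6 had too few cells there to be used.

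NRK had fitted values above 0, higher in calves, at all 3 passages. At passage 5 it was at 5.18, 6.03, 10.4, 3.39 and 9.03 CPM in calves 2, 4, 5, 7 and 10 and at 0.89, 0.96, 2.77 and 2.20 CPM in adults 1, 6, 8 and 9. The groups did not overlap, as in 0.41% of genes tested. The value of adult donor 6 rested on 1 UMI in a profile of 31 cells, which leaves its place below the calves uncertain. At passage 8 the same donor was at 4.92 CPM on 57 UMIs. The log2 fold change was 1.36 with a 95% interval of 0.41 to 2.30 (edgeR, adjusted p = 1), and the exact permutation test over donors gave p = 0.00794 (two-sided), the smallest it can give, as 1 of the same 29 tests. The exact permutation test, which carries no term for the kind of culture, gave NRK p = 0.0357 at passage 2 and p = 0.183 at passage 8, and no other member a p under 0.125 at passages 2 to 8.

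At passage 2 the NRK log2 fold change was 1.46 (95% interval -0.39 to 3.30) and at passage 8 it was 1.41 (0.16 to 2.66), with overlapping groups and an adjusted p of 1 in edgeR at both. At passage 2 it was 0.25 without calf donor 2, 0.94 without adult donor 1 and 2.72 without adult donor 8. Calves 5 and 10 added nothing to the fitted age difference there, since no adult culture sorted as SCs was left beside them. At passage 8 the calves split, with 2.33, 2.69 and 0.63 CPM in donors 2, 4 and 7 and 9.92 and 12.6 CPM in donors 5 and 10, the calves whose cultures had been sorted as SCs. Among the adults, donor 6, also from an SC sort, was highest at 4.92 CPM, against 0.34, 0.45 and 1.45 CPM in donors 1, 8 and 9. Within SC-sorted cultures both calves were above the adult, and within FAP-sorted cultures calves 4 and 7 were above adult 8, calf 7 on 3 UMIs and adult 8 on 2.

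**Figure D3:**
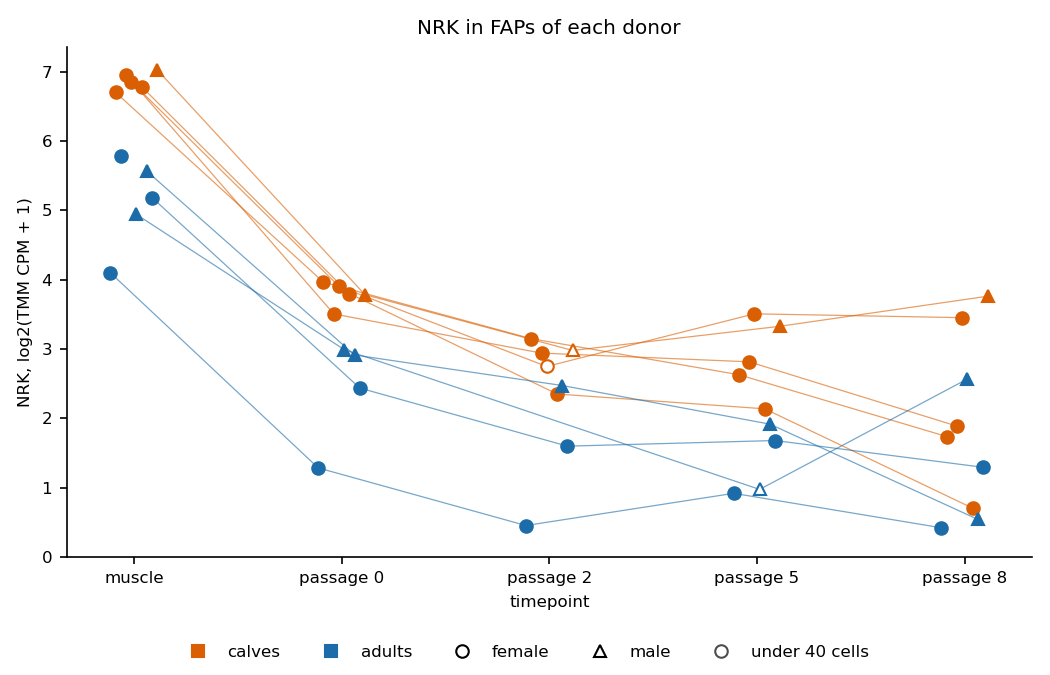
NRK in FAPs of each donor as log2(TMM CPM + 1) across the 5 timepoints, with calves in orange, adults in blue, females as circles, males as triangles and lines joining the same animal. Open symbols mark the profiles of 12, 19 and 31 cells, and calves lie above adults without overlap in muscle, at passage 0 and at passage 5. The profile of 31 cells, adult donor 6 at passage 5, held 1 UMI of NRK.

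None of the other members separated at the later passages. TACC1 at passage 2 had a log2 fold change of 0.48, with a p of 0.0341 before and 1 after adjustment in edgeR, in the direction opposite to that in muscle, and its interval of -0.04 to 1.00 included 0. PACSIN2 lay between -0.05 and 0.08, CD248 between -0.21 and -0.02, and SGPL1 between 0.03 and 0.27. ALAD lay between -0.24 and 0.15. The 95% interval of PACSIN2 at passage 5 was -0.27 to 0.17.

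LRRC17 at passage 5 was set by 1 animal, as adult donor 8 held 319 of its 438 UMIs in FAPs and calf donor 7 held 76. Its level was 12.3 CPM in donor 8 and 3.30 CPM in donor 7, against at most 0.76 CPM in the other donors. Both cultures had been sorted as FAPs, but donor 4, also sorted as FAPs, was at 0.76 CPM. The log2 fold change was -1.34 with a standard error of 0.97, and without donor 8 it was 2.40, the opposite direction. ADGRD1, with 107 UMIs in adults and 84 in calves at passage 5, had log2 fold changes of -1.04, -0.60 and -0.52 at passages 2, 5 and 8, and every interval included 0. Leaving out single donors moved it from -1.93 to -0.44 at passage 2 and from -0.97 to 0.92 at passage 8, where it was above 0 without calf donor 4 or adult donor 8.

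The members were not equally restricted to FAPs. In muscle, NRK averaged 71.7 library-size CPM in FAPs and at most 7.89 CPM in another type (SCs), and ADGRD1 averaged 69.2 CPM in FAPs and at most 3.85 CPM in smooth muscle and mesenchymal cells (SMMCs), leaving out neutrophils, of which only 1 donor had a profile, with 0 to 5 UMIs of each member. CD248 and LRRC17 were shared with SMMCs, at 246 and 126 CPM for CD248 and 43.7 and 89.4 CPM for LRRC17 in FAPs and SMMCs. PACSIN2 was higher in SMMCs, lymphatic endothelial cells (LECs), monocytes/macrophages and vascular endothelial cells (VECs), at 359, 356, 285 and 256 CPM, than the 138 CPM of FAPs. TACC1 was at 153 CPM in SMMCs, 151 CPM in VECs and 138 CPM in FAPs, which did not differ beyond their spread. ALAD averaged 46.0 CPM in FAPs, 43.4 CPM in LECs on 11 UMIs, and 41.8 CPM in SMMCs. SGPL1 averaged 26.3 CPM in FAPs, 19.9 CPM in SMMCs and 18.6 CPM in monocytes/macrophages. Levels are compared here within a gene, across cell types.

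At passage 0 the order changed for CD248, which averaged 271 CPM in SMMCs and 91.7 CPM in FAPs. NRK remained highest in FAPs, at 9.29 CPM against at most 4.09 CPM in LECs, where it rested on 6 UMIs. LRRC17 was at 8.90 CPM in SMMCs and 0.40 CPM in FAPs. In VECs it had 0 UMIs of 12243340, which allows up to 0.25 CPM by a limit of 3 counts, for counting error only.

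**Figure D4:**
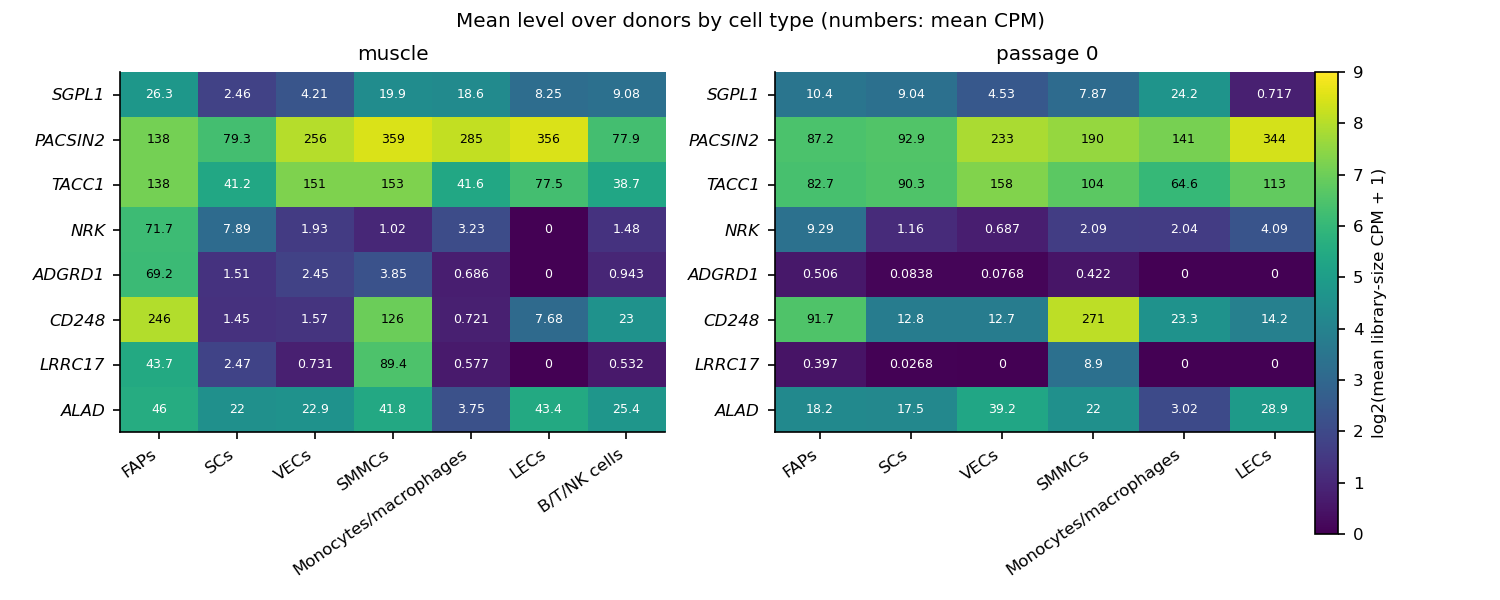
Mean library-size CPM over donors for each gene and each cell type with profiles from at least 3 donors, which leaves out neutrophils, in muscle and at passage 0, coloured as log2(CPM + 1), with the mean CPM printed in each cell. Among the types shown, NRK and ADGRD1 are bright in muscle FAPs alone, CD248 and LRRC17 in FAPs and SMMCs, and PACSIN2 and TACC1 in every type. In muscle, SGPL1 and ALAD in SMMCs lie near their level in FAPs.

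Whether the muscle gap was shared by other cell types was examined in SCs, VECs, SMMCs, monocytes/macrophages and lymphocytes (B/T/NK cells) of the same animals and the same library. The members past the filter were PACSIN2 and TACC1 in SCs and VECs, these with CD248 and LRRC17 in SMMCs, and PACSIN2 alone in monocytes/macrophages. No member passed the filter in B/T/NK cells, so none could be called there. Over all genes edgeR called 0.0963% in SCs, 0.796% in VECs, 0.846% in SMMCs, 0.107% in monocytes/macrophages and 0% in B/T/NK cells. No member past the filter was called by edgeR, and DESeq2 called no member either. Among members past the filter, PACSIN2 came closest, as it passed the adjusted p in 2 types without reaching the fold limit.

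In VECs PACSIN2 was at 151, 243, 216, 196 and 173 CPM in calves 2, 4, 5, 7 and 10 and at 370, 287, 535, 334 and 269 CPM in adults 1, 3, 6, 8 and 9. Every adult lay above every calf. The log2 fold change was -0.87 with a standard error of 0.19 (edgeR, adjusted p = 0.016), where 1.9% of genes had an adjusted p under 0.05 and 3.58% did not overlap.

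In SMMCs, PACSIN2 was at 284, 378, 277, 365 and 200 CPM in the calves and at 508, 520, 762, 633 and 426 CPM in the adults, again without overlap. The log2 fold change was -0.92 with a standard error of 0.20 (edgeR, adjusted p = 0.0277), against 1.16% of genes with an adjusted p under 0.05 and 4.01% without overlap. Adult donor 6, a male, was highest in both types. With female animals alone the log2 fold change was -0.60 in VECs (adjusted p = 0.124) and -0.56 in SMMCs (adjusted p = 0.204), and with sex in the model the adjusted p was 0.0259 and 0.0569.

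In SCs PACSIN2 had a log2 fold change of -0.59 (edgeR, adjusted p = 0.552) and in monocytes/macrophages of -0.40 (adjusted p = 0.662). TACC1 was also fitted lower in calves, at -0.85 in VECs (adjusted p = 0.0825), -0.69 in SMMCs (adjusted p = 0.287) and -0.64 in SCs (adjusted p = 0.522), none passing the threshold. Fitted without the filter, TACC1 was at 0.05 in monocytes/macrophages (edgeR, adjusted p = 0.974) and -0.12 in B/T/NK cells (adjusted p = 0.949), and PACSIN2 was at 0.34 in B/T/NK cells (adjusted p = 0.818), so a lower value in calves was not seen in every type. In VECs TACC1 reached an adjusted p of 0.00345 with sex in the model and 0.0122 without calf donor 4. SGPL1 was under the filter in all 5 types, with 19 UMIs in calves and 13 in adults in SMMCs, and fitted without the filter its log2 fold change lay between -0.74 and 0.52 over the 5 types, with no adjusted p under 0.7498 in edgeR.

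CD248 and LRRC17 passed the filter only in SMMCs among the other types. CD248 had a log2 fold change of 0.95 (edgeR, adjusted p = 0.181), from 91.4 to 309 CPM in calves and 78.5 to 139 CPM in adults, and LRRC17 one of 0.66 (adjusted p = 0.532). Without calf donor 4, the lowest calf, CD248 was called, at a log2 fold change of 1.19. Fitted without the filter in the other 4 types, CD248 lay between -1.40 and 2.57 and LRRC17 between -0.05 and 2.33, with no adjusted p under 0.7275 in edgeR. NRK and ADGRD1, under the filter in all 5 types, lay between -3.03 and 1.86 and between -0.79 and 1.71, with no adjusted p under 0.362.

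ALAD was under the filter in these types. Calves and adults held 95 and 15 UMIs in VECs, 96 and 15 in SMMCs, 41 and 21 in SCs, 25 and 4 in B/T/NK cells and 8 and 2 in monocytes/macrophages. Calf profiles were deeper, and in CPM the means were 34.8 and 11.1 in VECs, 58.8 and 24.7 in SMMCs, 25.2 and 18.7 in SCs, 41.2 and 9.59 in B/T/NK cells and 3.91 and 3.59 in monocytes/macrophages. Fitted without the filter, the log2 fold change of ALAD was 1.53 in VECs (edgeR, adjusted p = 0.0162) and 1.34 in SMMCs (adjusted p = 0.0773). It was 0.44 in SCs (adjusted p = 0.803), 0.50 in monocytes/macrophages (adjusted p = 0.917) and 1.94 in B/T/NK cells (edgeR, adjusted p = 0.741).

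**Figure D5:**
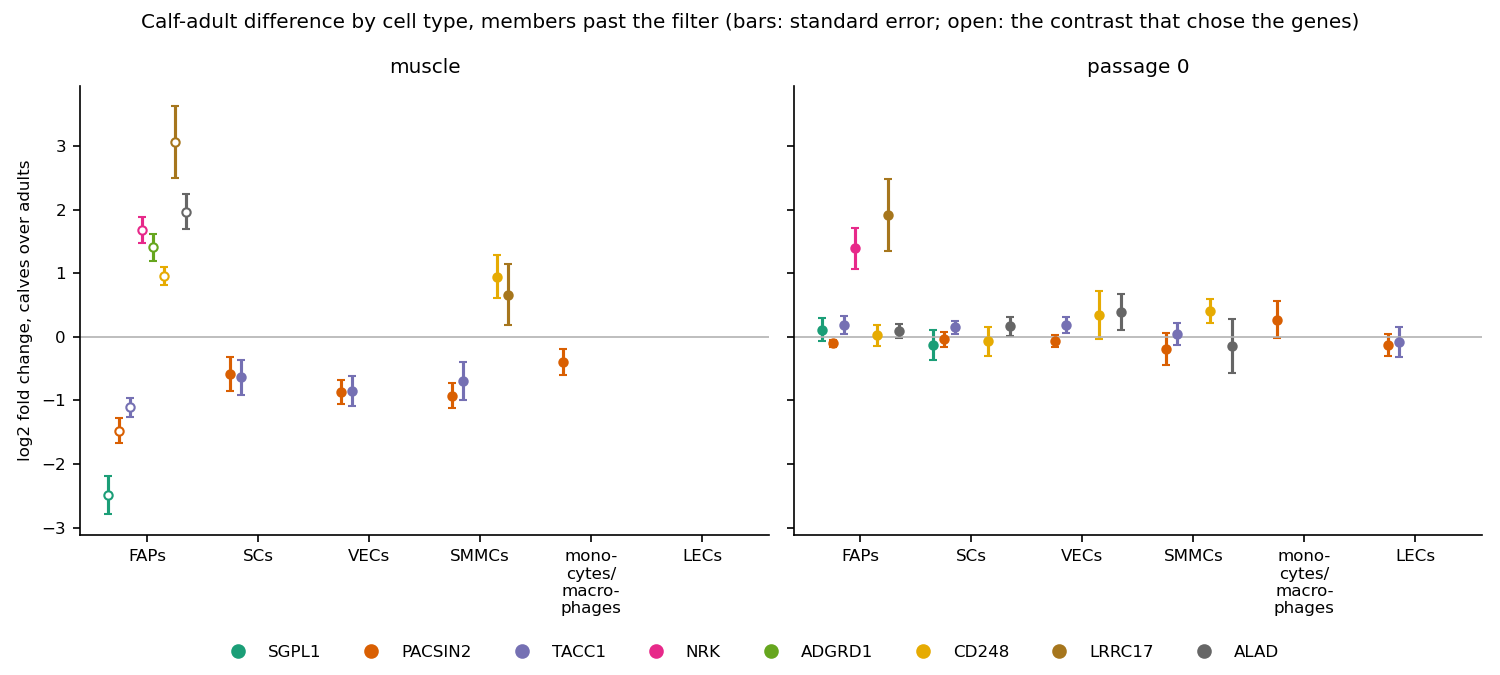
Fitted log2 fold change of calves over adults by cell type, in muscle and at passage 0, for the members past the filter, with bars for the standard error and open points for the muscle FAP contrast that chose the genes. In muscle, PACSIN2 and TACC1 lie below 0 in every type where they passed the filter, and at passage 0 the values lie between -0.19 and 0.40 apart from NRK and LRRC17 in FAPs.

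At passage 0, edgeR called no member in SCs, VECs, SMMCs, monocytes/macrophages or LECs, where 1 gene in all was called (0.045% in monocytes/macrophages and 0% in the others). DESeq2 called 18 genes and none of the members. NRK, ADGRD1 and LRRC17 were under the filter in all of these types, and PACSIN2 alone passed it in monocytes/macrophages. Among those tested, the member with the largest fitted difference was CD248 in SMMCs, at a log2 fold change of 0.40 (edgeR, adjusted p = 0.79). PACSIN2 had log2 fold changes of -0.06 in VECs and -0.19 in SMMCs. Fitted without the filter, NRK was at 1.01 in SCs, 0.96 in VECs, -0.40 in SMMCs, -0.88 in monocytes/macrophages and 1.40 in LECs. LRRC17 was at 1.00 in SMMCs and 0.13 in SCs, and CD248 at -1.295 in LECs and -0.29 in monocytes/macrophages. No member fitted this way had an adjusted p under 0.6959 in edgeR.

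The pathways around the members were read from lists of related genes in FAPs. At passage 0, edgeR called 0 genes of any list between calves and adults. Of the 26 tested genes of sphingosine-1-phosphate and sphingolipid turnover, around SGPL1, 4 had an unadjusted p under 0.05, with a median log2 fold change of -0.04. For haem synthesis and breakdown, around ALAD, it was 3 of 18 with a median of -0.08, and for PACSIN, caveola and membrane-bending proteins 3 of 22 with a median of 0.06. Over all genes the median was 0.01 and 5.01% had such a p.

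In the families nearest to the other members there were 1 of 16 germinal centre kinases, 1 of 8 adhesion receptors, and 0 of 17 TACC partners, 0 of 9 CD248 relatives and 0 of 18 extracellular leucine-rich repeat proteins at an unadjusted p under 0.05. For imprinted and postnatal growth genes it was 8 of 20 at an unadjusted p under 0.05, all fitted higher in calves, and a median of 0.28. They included IGF2BP3 (log2 fold change 2.19), an RNA-binding protein of fetal tissue, IGFBP5 (1.19), IGF2 (0.99), a fetal growth factor, and CDKN1C (0.84), an imprinted cell cycle inhibitor. None had an adjusted p under 0.717. This list was drawn up with earlier results of these data known, so its share is a description only. Its named genes were picked after their values were seen. At the later passages an unadjusted p under 0.05 was found for 1 of 20 genes of the list at passage 2 (median 0.20), 3 of 21 at passage 5 (median -0.0011) and 1 of 15 at passage 8 (median 0.12). In muscle FAPs IGF2 was the only gene of these lists called beside the members, at 1.41.

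From muscle to passage 0, the lists differed in their counts. Of 18 tested genes of haem synthesis and breakdown, a list that did not hold ALAD itself, 9 were called higher and 1 lower. The higher ones included enzymes on either side of ALAD in the pathway, ALAS1 (log2 fold change 1.39) before it and UROS (1.54), UROD (1.10), CPOX (1.84) and PPOX (1.87) after it. ALAD was fitted lower with the ages pooled, but went from 78.0 to 18.8 CPM in calves and only from 19.4 to 17.6 CPM in adults. FECH, the last enzyme, had a log2 fold change of -0.98, and the lower gene was PGRMC1 (-1.47), a haem-binding membrane protein. Extracellular leucine-rich repeat proteins were called lower for 15 of 16, and the 8 CD248 relatives and ligands were lower for 6 and higher for 2. All 30 cell cycle genes were called higher.

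The genes most like each member but ADGRD1, which was under the filter at passage 0, were found over the 19 FAP profiles of muscle and passage 0, as Pearson's r of log2 CPM after taking out the mean of each timepoint, among 6073 genes. The profiles of a timepoint share a library, and in muscle all members follow the same division of the animals. Among the genes most like PACSIN2 were FKBP5 (r = 0.95) and CEBPZ (0.94), and SGPL1 was most like CEBPZ (0.94), PACSIN2 (0.92) and MT2A (0.91). Within passage 0 alone, the r of PACSIN2 with FKBP5 was -0.23 and that of SGPL1 with PACSIN2 -0.13, while the r of SGPL1 with CEBPZ was -0.51, that of PACSIN2 with CEBPZ 0.36 and that of SGPL1 with MT2A 0.66.

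NRK was most like AEBP1, a matrix-associated protein of fibroblasts, at r = 0.83, then MGC148714 (0.80) and RRAS (0.78). Its likeness to AEBP1 was 0.87 within muscle and 0.82 within passage 0. ALAD and LRRC17 shared C1QTNF2 as their nearest gene, at 0.93 and 0.90, and LRRC17 was next most like CD248 (0.89) and MARCKS (0.89). CD248 was closest to RPS12 (0.91), ENSBTAG00000022204 (0.90) and EEF1G (0.89), and TACC1 to TFB2M (0.91), ZNF507 (0.91) and UTP20 (0.90). For ALAD, KANK2 (0.91) and CCDC28B (0.88) followed. Within passage 0 the r of ALAD was 0.80 with C1QTNF2, 0.38 with KANK2 and 0.33 with CCDC28B. There the r of LRRC17 with its 3 genes was 0.53 to 0.66, that of CD248 0.60 to 0.67, that of TACC1 0.71 to 0.78, and that of NRK with MGC148714 0.76 and with RRAS 0.58.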

How the data were processed

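Libraries of 1 pool of donors per timepoint were made on the 10x Genomics platform. The authors counted reads with Cell Ranger 6.0.1 against the bovine build ARS-UCD1.2, assigned donors with demuxlet and named cell types on their own clusters, and what was deposited per library is a matrix of unnormalised UMI counts. The deposited cell table also gives percent of mitochondrial UMIs, read here only as a quality value. Doublets between donors had been removed by demuxlet (728 to 8729 barcodes per library). The 36129 cells that passed the authors' filters were used, with 2772 to 10405 per library, and 129 barcode sequences occurred in more than 1 library.

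Profiles were built by adding up UMI counts over the cells of each donor within a cell type (at least 10 cells). Genes passing filterByExpr were fitted with edgeR 4.0.16 (R 4.3.3, TMM, quasi-likelihood F test, robust, Benjamini-Hochberg adjustment), with the kind of culture as a term at passages 2, 5 and 8. Standard errors are the fold change over the root of F. DESeq2 1.42.0, other scalings, filters, covariates and single donors left out were alternatives. Female animals only, and the leave-out and scaling runs of the muscle FAPs, were chosen after seeing the data, as was the exact test at passages 2 to 8. The members and gene lists were chosen with earlier results of these data known. Named genes were the members, the 3 genes most like each, and genes of the lists called at passage 0 (0 genes); list genes named outside that rule were chosen after their values were seen. Donor ages, sexes and sorts come from the study's own description. Where muscle and passage 0 were compared, the same animals pair the samples, and their deviations correlated at r = -0.04 to 0.24 over 6073 genes. The fits were tested on simulated data. The combined count table, which holds normalised values, and 49 metadata columns were not used. Ambient RNA was not modelled. A single one of the genes most like a member is not reported here.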

Additional observations from a re-analysis of the deposited data

Results flagged for a closer look

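Among 110 groups of 4 or 5 donors examined for the members' levels, 6 held 1 donor set far apart from the rest by Dixon's test at 95%, where chance alone gives about 1 in 20 groups. LRRC17 in FAPs at passage 5 was at 12.3 CPM in adult donor 8 (group median 0.11) and at 3.30 CPM in calf donor 7 (group median 0.64). ALAD in FAPs at passage 5 was at 43.8 CPM in calf donor 5 (group median 16.2). CD248 was low in adult donor 6 at passage 5 (405 CPM, group median 530), a profile of 31 cells, and in calf donor 10 at passage 8 (318 CPM, group median 366). SGPL1 at passage 8 was at 14.3 CPM in calf donor 2, on 43 UMIs (group median 7.06).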

How the results depend on the processing

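The number of members called is given here by setting, and the counts over all genes follow below. In FAPs at passage 0 it was 0 in edgeR and 1 (NRK) in DESeq2. In other cell types in muscle it was 0, 1 without the low-count filter (ALAD in VECs), 2 without a minimum fold change (PACSIN2 in VECs and SMMCs), 1 with sex as a covariate (TACC1 in VECs), and 0 to 3 with each donor left out, the 3 without calf donor 4 (TACC1 in VECs, PACSIN2 and CD248 in SMMCs) and 1 without adult donor 9 (PACSIN2 in SMMCs). From muscle to passage 0 it was 4 of 7 tested, where 43.4% of 9208 genes were called. ADGRD1, counted in the 4, passed the filter only through muscle. The count was 5 with DESeq2 or library-size scaling (SGPL1 added) and 5 without the filter (LRRC17 added). It was 6 without a minimum fold change (SGPL1 and TACC1 added), a setting under which most genes tested were called as well. It was 1 after thinning to the smallest profile, where only 3 members passed the filter. With the donor as a replicate block it was 5, with LRRC17 added, which passed the filter only through muscle. In that fit 4622 genes were called against 3997.

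Counts over all genes moved more. At passage 0 in FAPs, DESeq2 called 8 genes against 0, and leaving out each donor gave 0 to 1. At passages 2, 5 and 8 together the count was 0, with 13 in DESeq2, 2 without the filter, 2 with sex and 0 to 5 with each donor left out (5 without donor 8, 3 without donor 2). In other types at passage 0 it was 1, with 18 in DESeq2, 37 without the filter, 0 at 30 cells or more, 3 with sex, 29 in females alone, and 1 to 44 with each donor left out (44 without donor 6). In other types in muscle it was 62, with 97 in DESeq2, 331 without the filter, 120 without a minimum fold change, 111 in females alone, and 43 to 83 with each donor left out. Between muscle and passage 0 it was 6925 without the filter, 7332 of 9208 without a minimum fold change and 1654 after thinning. In muscle FAPs it was 81, with 51 in females alone and 57 to 105 with each donor left out. The causes were not tested. No paired analysis was possible between calves and adults because they are different animals. The exact permutation test cannot give a p under 0.00794 at 5 against 4. Adjusted over all genes, it can reach the threshold only where a large share of genes hold so small a p. Few donors per age limit every age comparison, and low UMI counts those of LRRC17, ADGRD1 and SGPL1.

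Of 1025 recomputed values of single members, 50 had the opposite sign to the reported one, none of them called. With sex as a covariate the log2 fold change was -0.0022 for TACC1 in SMMCs at passage 0, -0.14 for PACSIN2 in FAPs at passage 2, 1.46 for LRRC17, -0.35 for ALAD, 0.072 for CD248 and -0.16 for SGPL1 in FAPs at passage 5, and -0.15 for PACSIN2 and 1.21 for ADGRD1 in FAPs at passage 8. In females alone it was -0.049 for SGPL1 in FAPs and 0.034 for PACSIN2 in SCs, both at passage 0. Without the term for the kind of culture it was 0.26 for ALAD at passage 2 and -0.18 for SGPL1 at passage 5, and without TMM -0.0094 for SGPL1 at passage 5. The difference of mean log2 CPM used by the exact permutation test was -0.0029 for CD248 at passage 0, 0.27 for ALAD and -0.12 for SGPL1 at passage 2, and 0.21 for LRRC17 and -0.29 for SGPL1 at passage 5. With single donors left out at passage 0, the log2 fold change ran from -0.088 to 0.13 for CD248 in FAPs, from -0.15 to 0.025 for PACSIN2, -0.22 to 0.055 for CD248 and -0.28 to 0.0056 for SGPL1 in SCs, from -0.36 to 0.19 for PACSIN2 and -0.43 to 0.19 for ALAD in SMMCs, and from -0.18 to 0.027 for TACC1 in LECs. In FAPs at passage 2 it ran from -0.15 to 0.32 for PACSIN2, -0.37 to 0.071 for ALAD and -0.42 to 0.016 for CD248. At passage 5 it ran from -1.64 to 2.40 for LRRC17, -0.040 to 0.40 for ALAD, -0.11 to 0.048 for CD248, -0.095 to 0.15 for SGPL1 and -0.030 to 0.34 for TACC1. At passage 8 it ran from -0.12 to 0.20 for PACSIN2, -0.97 to 0.92 for ADGRD1 and -0.061 to 0.48 for SGPL1.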
